A study of Homo sapiens with 4 samples.

Results

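The genes described here are 51 members of the solute carrier families SLC1, SLC6, SLC7, SLC36, SLC38 and SLC43, which hold most of the carriers that move amino acids across the plasma membrane and the lysosomal membrane. They were chosen by gene symbol among 39306 gene names, as every numbered member of these families in the deposited tables other than SLC7A11, the cystine carrier. The symbol rule also takes in carriers whose main substrate is not an amino acid, such as SLC6A8 (creatine), SLC6A2, SLC6A3 and SLC6A4 (monoamines), SLC6A12 (betaine and GABA) and SLC43A3 (purine nucleobases). By family there were 7 SLC1, 16 SLC6, 11 SLC7, 4 SLC36, 10 SLC38 and 3 SLC43 genes.

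Amino acids enter cells through carriers that either concentrate them, with the sodium gradient or the membrane potential as the driving force, or exchange one for another. SLC1A5, SLC38A1 and SLC38A2 bring in glutamine and other small neutral amino acids. SLC7A5 exchanges intracellular amino acids for leucine and other large neutral ones, and, like its close relatives of the light chain branch of SLC7, it reaches the surface only when it is bound to a heavy chain, SLC3A2 (4F2hc, CD98) or, for SLC7A9, SLC3A1 (rBAT). Supply through these carriers feeds protein synthesis and the lysosomal sensing that switches on the kinase complex mTORC1, and several of the genes are known targets of the transcription factors ATF4 and MYC. Liver tumour cells are known for high levels of SLC1A5 and SLC7A5.

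Total RNA depleted of ribosomal RNA was sequenced with a stranded kit from MHCC97H, an established human hepatocellular carcinoma line. The 2 control libraries were from wild-type cells with normal HNRNPM. The 2 knockdown libraries were from MHCC97H cells carrying a hairpin directed at HNRNPM, the gene of a heterogeneous nuclear ribonucleoprotein that regulates splicing. The title of the series names the lncRNA of TRIM7 and its splicing as the subject, and the transporters were not singled out there. The labels name no control hairpin for the wild-type cells and leave out which hairpin each knockdown library holds. Separate cultures are not stated for the replicates. The p-values reflect the spread between libraries within groups, moderated by limma over all tested genes, and that spread may be technical.

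Levels are given in RPKM, reads per kilobase of annotated exon and per 1000000 assigned reads, divided by a scaling factor of each library (TMM, 0.972 to 1.03). Assigned reads numbered 18317579 and 19659106 in control replicates 1 and 2 and 12708165 and 11498663 in knockdown replicates 1 and 2. HNRNPM was at 52.1 and 53.1 RPKM in the controls and 21.2 and 20.1 RPKM in the knockdown libraries, 39.2% of the control level (limma adjusted p = 0.00270; log2 fold change -1.35 ± 0.07, SE). Of 11 hepatocyte markers 8 had a mean of at least 1 RPKM, with a summed level of 839 to 923 RPKM in the controls and 1074 to 1130 RPKM in the knockdown libraries. Most of that sum came from the keratins KRT8 and KRT18, and KRT18 was called higher (limma adjusted p = 0.0382). Albumin (ALB) was at 5.44 and 6.46 RPKM in the controls and 1.70 and 1.75 RPKM in the knockdown libraries. ALB, APOB and FGB were called lower (limma adjusted p = 0.00366, 0.0206 and 0.00524). The defining markers AFP, APOA1 and TTR stayed under 1 RPKM in each library. The 4 bile duct markers, led by KRT19, summed to 186 to 193 RPKM in the controls and 276 to 291 RPKM in the knockdown libraries, and KRT7 among them went from 9.58 and 6.92 RPKM to 38.7 and 41.0 RPKM. The 4 fibroblast markers summed to 0.101 and 0.168 RPKM in the controls and 0.492 and 0.626 RPKM after knockdown, with COL1A1 and PDGFRB called higher (limma adjusted p = 0.0378 and 0.0215). The leukocyte marker PTPRC was at 0 in 3 of them and at 0.0366 RPKM in knockdown replicate 1. Endothelial markers summed to 9.06 and 9.69 RPKM in the controls and 5.86 and 6.08 RPKM in the knockdown libraries, nearly all of it PECAM1. The 4 immune markers analysed summed to 48.1 to 60.4 RPKM, nearly all of it CD68, a lysosomal membrane protein. CD14 among them went from 0.853 and 0.749 RPKM to 0.122 and 0.136 RPKM (limma adjusted p = 0.00462). The part of these shifts in the transporter values was not tested. In bulk RNA, fewer cells that express a gene and less RNA of it per cell cannot be told apart.

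In the control cells 8 of the 51 transporter genes were at 10 RPKM or more, 19 lay between 1 and 10 RPKM, and the other 24 were lower. SLC1A5 (ASCT2, the glutamine exchanger) was the most abundant, at 208 and 228 RPKM. SLC6A8, the creatine carrier, followed at 74.8 and 80.2 RPKM. Next came SLC38A2 (SNAT2), at 56.7 and 59.3 RPKM, and SLC7A5 (LAT1), at 58.1 and 54.2 RPKM, whose libraries overlapped, so their order is not set. SLC38A1 (SNAT1) stood below them at 46.1 and 47.1 RPKM. SLC38A10, a family member of less settled function, and SLC6A6, the taurine carrier, overlapped at 35.2 and 42.1 RPKM and at 32.4 and 38.9 RPKM. SLC7A1 (CAT1), the main carrier of arginine and lysine, closed this upper group at 10.4 RPKM in both controls. The 2 most abundant genes held 49.3% of the summed level of all members and the top 5 held 76.1%.

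At the other end, 19 members did not reach the minimum for testing (what 10 reads are worth at median depth, in at least 2 libraries, and 15 reads in all). None of them had more than 9 reads in a library, and the highest mean was 0.0946 RPKM, in SLC6A13. SLC6A13 (GAT2), SLC7A4, SLC38A3 (SNAT3), SLC36A3, SLC6A4, SLC6A18, SLC6A3, SLC7A3, SLC6A19, SLC7A14, SLC7A10, SLC1A6, SLC36A2, SLC6A2, SLC1A3, SLC6A17, SLC6A11, SLC6A7 and SLC6A14 make up this group. SLC38A3, a glutamine carrier that hepatocytes use to take up and release glutamine, thus had only 1 and 3 reads in the control libraries. Differences in these genes were not detectable at this depth.

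**Figure D1:**
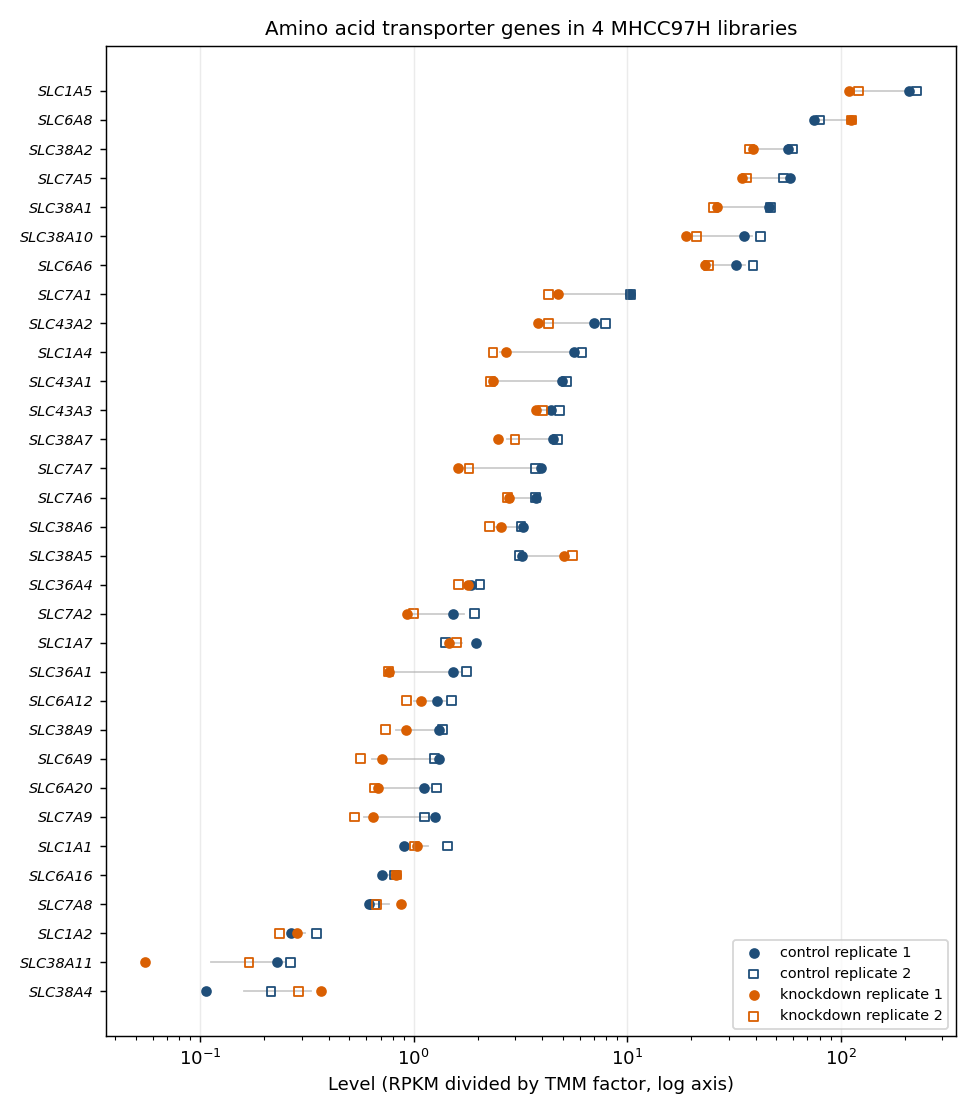
Level of each of the 32 tested transporter genes in each library, in RPKM after TMM scaling on a log axis, sorted by the control mean; grey lines join the group means. Control libraries are blue and knockdown libraries orange, and the orange points lie left of the blue ones for most genes, with SLC6A8 and SLC38A5 as called exceptions.

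In HNRNPM knockdown cells the transporter genes were mostly lower. Of 32 tested members 19 (59.4%) fell, 2 rose and 11 were not called (threshold of 0.05 on the limma p adjusted over 20221 genes), while 24.9% of all tested genes were called, 13.8% lower and 11.1% higher. Knockdown and control libraries were fully separated in 29 of the 32, with 24 below and 5 above the controls, against 67.6% of all tested genes, 36.6% below and 31.0% above. The median log2 fold change of the tested members was -0.65, and that of all tested genes -0.03. The 30 members that passed the read minimum in all 4 libraries had the same 2 higher and 19 lower calls and 9 without a call. Of the 8 genes at 10 RPKM or more 7 fell and 1 rose, and of the 19 between 1 and 10 RPKM 12 fell, 1 rose and 6 were not called. Of the 5 tested genes under 1 RPKM limma called 0. SLC38A4 alone among them had an unadjusted p under 0.05, and limma-voom called it and SLC38A11. In 5 of the genes that fell the level dropped by at least 1 on the log2 scale, and 4.26% of all tested genes were called with a change of at least that size in either direction. The summed level of all members was 579 and 621 RPKM in the controls and 408 and 423 RPKM in the knockdown libraries, 69.3% of the control mean.

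Scaling to total reads alone changed the split of all calls from 44.5% to 55.5% higher, and in the transporters it left 17 lower and 2 higher. The tested members have long annotated exons, with a median of 5772 bp against 3572 bp for all tested genes. The median log2 fold change was -0.08 in the longest 10% of all tested genes and 0.03 in the shortest 10%. With the trend along exon length removed, 17 members were lower and 2 higher, and with no filter on low values 10 were lower and 2 higher. Calls among all genes also dropped with no filter, from 2792 lower and 2240 higher to 1113 and 693. Many of the calls rest on both knockdown libraries. Without knockdown replicate 1 or 2 fewer members were called, and fewer of all tested genes as well. The member medians were then -0.60 and -0.68. SLC1A4, SLC1A5, SLC38A1, SLC38A10, SLC43A1, SLC43A2, SLC7A1 and SLC7A7 passed the test under all 14 alternative settings.

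**Figure D2:**
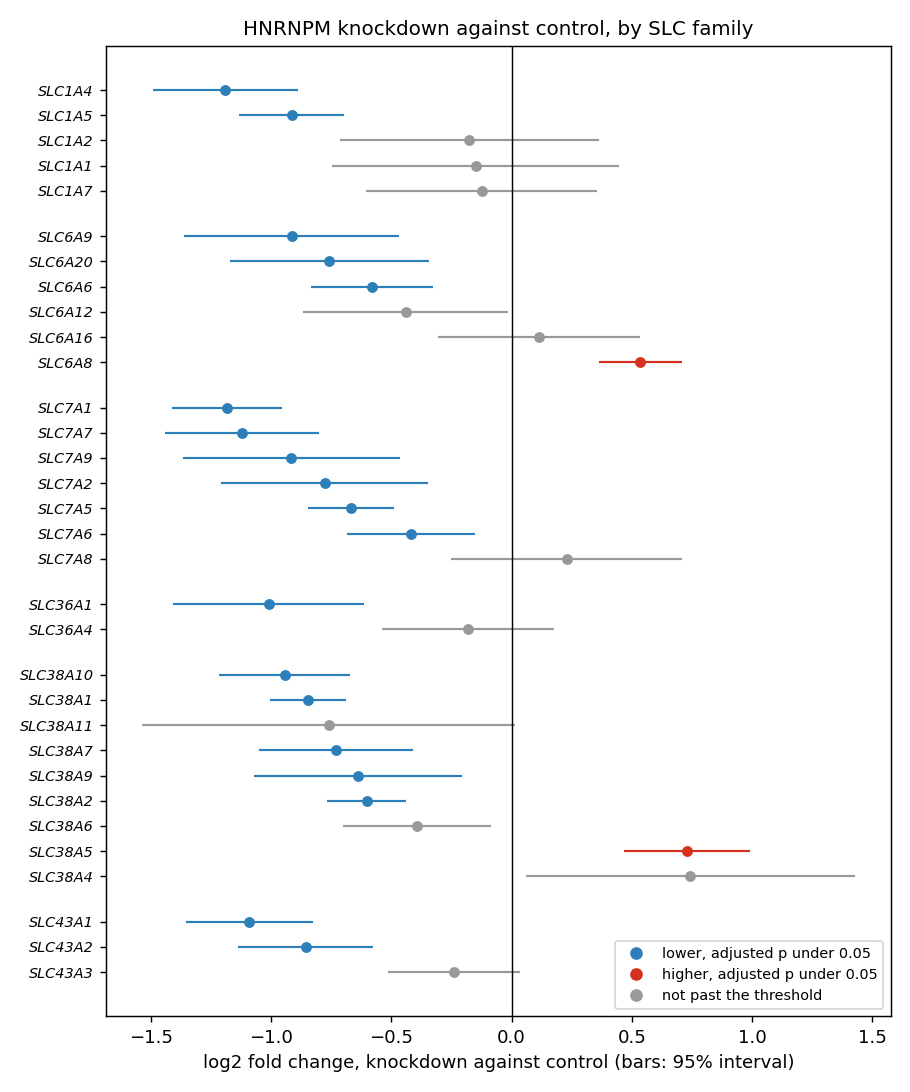
Log2 fold change of each tested transporter gene in knockdown against control cells with its 95% interval from limma, grouped by SLC family. Blue marks the 19 genes that fell, red the 2 that rose and grey the 11 that did not pass; the largest falls, in SLC1A4 and SLC7A1, lie near -1.2.

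The promoters of the genes that moved are shown for the letters they hold. Several of these carriers are known targets of ATF4 and MYC, and the element of NRF2 was searched as well. RefSeq windows (GRCh38.p14, 250 bases before to 50 after a start site) matched 41 of the 51 members by symbol, with 61 windows in all because 13 genes had several starts. The patterns searched, on both strands, were the C/EBP-ATF response element TGATGNAA, the E-box CACGTG and the antioxidant response element TGACNNNGC. No 2 matches overlapped. Capitals mark every match in the 7 windows below, which are those of the 4 genes that fell and hold the C/EBP-ATF letters, of SLC7A5 as the most abundant light chain, and of the 2 genes that rose. Each is written 5′ to 3′ on the strand of its gene.
SLC1A4 (chr2:64989149-64989448, plus strand): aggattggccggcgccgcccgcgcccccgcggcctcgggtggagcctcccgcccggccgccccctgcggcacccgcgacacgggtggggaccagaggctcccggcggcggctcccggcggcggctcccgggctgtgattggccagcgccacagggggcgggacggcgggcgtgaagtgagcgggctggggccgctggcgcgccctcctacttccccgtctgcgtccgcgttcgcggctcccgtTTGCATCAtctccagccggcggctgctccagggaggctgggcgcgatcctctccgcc
SLC7A1 (chr13:29595639-29595938, minus strand): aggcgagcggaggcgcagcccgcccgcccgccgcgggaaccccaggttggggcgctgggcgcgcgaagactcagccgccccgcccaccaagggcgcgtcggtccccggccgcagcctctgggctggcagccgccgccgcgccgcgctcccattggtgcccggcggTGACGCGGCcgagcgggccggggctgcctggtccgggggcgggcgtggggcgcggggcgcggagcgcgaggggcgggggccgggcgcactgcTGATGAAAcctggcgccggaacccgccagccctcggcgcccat
SLC38A1 (chr12:46266467-46266766, minus strand): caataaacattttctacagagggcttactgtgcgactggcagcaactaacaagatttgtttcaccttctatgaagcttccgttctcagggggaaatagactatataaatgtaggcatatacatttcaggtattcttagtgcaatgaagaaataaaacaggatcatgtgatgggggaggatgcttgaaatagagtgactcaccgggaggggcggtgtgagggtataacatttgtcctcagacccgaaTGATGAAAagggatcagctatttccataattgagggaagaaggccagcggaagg
SLC1A5 (chr19:46784765-46785064, minus strand): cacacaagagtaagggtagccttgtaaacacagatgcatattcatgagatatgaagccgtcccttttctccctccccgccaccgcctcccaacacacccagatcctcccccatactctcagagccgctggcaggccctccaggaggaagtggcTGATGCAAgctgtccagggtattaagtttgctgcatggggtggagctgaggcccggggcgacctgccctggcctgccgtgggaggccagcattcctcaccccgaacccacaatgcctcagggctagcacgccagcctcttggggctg
SLC7A5 (chr16:87869458-87869757, minus strand): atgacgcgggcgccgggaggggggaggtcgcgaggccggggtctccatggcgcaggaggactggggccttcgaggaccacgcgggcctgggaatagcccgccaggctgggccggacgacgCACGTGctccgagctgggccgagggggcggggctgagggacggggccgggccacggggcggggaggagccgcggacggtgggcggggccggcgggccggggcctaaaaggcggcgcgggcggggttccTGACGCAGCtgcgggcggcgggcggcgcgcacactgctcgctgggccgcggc
SLC6A8 (chrX:153687676-153687975, plus strand): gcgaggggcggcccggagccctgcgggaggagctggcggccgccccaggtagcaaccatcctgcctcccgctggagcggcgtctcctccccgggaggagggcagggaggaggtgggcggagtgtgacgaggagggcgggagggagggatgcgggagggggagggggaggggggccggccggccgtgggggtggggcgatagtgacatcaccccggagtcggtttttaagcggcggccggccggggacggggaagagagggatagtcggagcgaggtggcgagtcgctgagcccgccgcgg
SLC38A5 (chrX:48470211-48470510, minus strand): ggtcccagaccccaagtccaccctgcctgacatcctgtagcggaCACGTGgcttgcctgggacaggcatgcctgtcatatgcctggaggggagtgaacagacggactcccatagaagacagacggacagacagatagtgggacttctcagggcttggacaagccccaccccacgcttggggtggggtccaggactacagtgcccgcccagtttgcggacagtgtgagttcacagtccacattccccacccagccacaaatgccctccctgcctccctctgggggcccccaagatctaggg

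The C/EBP-ATF letters stood in a window of 4 of the 17 genes that fell and have one, and in neither of the 2 that rose. Counted in windows, that is 4 of 30 (13.3%) for the genes that fell, 9.09% for tested members, 8.20% for all members, 2.13% for all tested genes and 3.62% for all 35116 RefSeq windows. In SLC1A4 they are on the opposite strand, 7 bases before the start site, in SLC38A1 4 bases before it and in SLC7A1 8 bases into the transcript. In SLC1A5 they lie 97 bases before a start site. For SLC1A4, SLC38A1 and SLC1A5 the window with the match is not that of the most upstream RefSeq start, which held no such letters, while SLC7A1 has a single window. The E-box was in 20.0% of windows of the genes that fell, in 22.7% of those of tested members, in 16.4% of those of all members, in 9.17% of those of tested genes and in 7.26% of all windows. It occurs in the SLC7A5 window shown, 130 bases before the start, and also in that of SLC38A5, which rose. The antioxidant response letters were in 16.7% of windows of the genes that fell, in 11.4% of those of tested members, in 9.84% of those of all members, in 14.3% of those of tested genes and in 13.3% of all windows. The SLC6A8 window held none of the 3 patterns. Shares per gene were not computed for all tested genes, and a gene with several windows has more chances of a match. These are matches of letters and not measured binding.

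Among carriers of small neutral amino acids and glutamine, SLC1A5, SLC1A4, SLC38A1 and SLC38A2 fell in knockdown cells and SLC38A5 rose. SLC1A5 (chromosome 19, positions 46774883 to 46788594, minus strand) was at 208 and 228 RPKM in the controls and 110.2 and 121 RPKM in the knockdown libraries. The groups did not overlap, and the level was 53.0% of control (log2 fold change -0.91 ± 0.09, limma adjusted p = 0.00462). SLC1A4 (ASCT1), which exchanges alanine, serine and cysteine and lies on chromosome 2 at 64988477 to 65023865, measured 5.63 and 6.15 RPKM in the controls and 2.70 and 2.35 RPKM after knockdown. It had the lowest remaining share of all called members, 42.9% (log2 fold change -1.19 ± 0.12, limma adjusted p = 0.00510). The system A carrier SLC38A1 (chromosome 12, 46183063 to 46270017) went from 46.1 and 47.1 RPKM to 26.3 and 25.5 RPKM (log2 fold change -0.85 ± 0.06, limma adjusted p = 0.00366). Its neighbour SLC38A2 (chromosome 12, 46358189 to 46372867), the carrier that amino acid starvation is known to induce, was at 56.7 and 59.3 RPKM in the controls and 38.8 and 37.5 RPKM in knockdown cells. It kept 65.8% of its control level (log2 fold change -0.60 ± 0.07, limma adjusted p = 0.00565), and it missed the threshold without knockdown replicate 1 (adjusted p = 0.050, limma).

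SLC38A5 (SNAT5), a system N carrier of glutamine, glycine and serine on the X chromosome (48458537 to 48470256, minus strand), rose. It was at 3.2 and 3.1 RPKM in the controls and 5.07 and 5.54 RPKM in the knockdown libraries, from 232 to 266 reads per library. All knockdown values lay above the controls (log2 fold change 0.73 ± 0.11, limma adjusted p = 0.00934), which moved it from rank 17 to rank 8 among the members. Without knockdown replicate 2 it did not pass (adjusted p = 0.0631, limma). The third system A gene, SLC38A4 (SNAT4), known from normal liver, was at 0.107 and 0.215 RPKM in the controls and 0.369 and 0.289 RPKM in knockdown cells, from 8 to 20 reads. The libraries did not overlap, but the gene was not called (log2 fold change 0.74 ± 0.27, limma adjusted p = 0.102).

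SLC38A10 and SLC38A7 fell as well. SLC38A10 (chromosome 17, 81245000 to 81295547, minus strand) was at 35.2 and 42.1 RPKM in the controls and 18.9 and 21.1 RPKM after knockdown (log2 fold change -0.94 ± 0.11, limma adjusted p = 0.00611). SLC38A7 (SNAT7), which exports glutamine from lysosomes, measured 4.47 and 4.72 RPKM in the controls and 2.50 and 2.99 RPKM in the knockdown libraries. Its log2 fold change was -0.73 ± 0.13 (limma adjusted p = 0.0159), and it did not pass without control replicate 2 or knockdown replicate 1 (adjusted p = 0.0533 and 0.0746). SLC38A6 was at 3.24 and 3.18 RPKM in the controls and 2.57 and 2.28 RPKM in knockdown cells and was not called (log2 fold change -0.39 ± 0.12, limma adjusted p = 0.0688). SLC38A11, from 4 to 28 reads per library, was not called either (log2 fold change -0.76 ± 0.31, limma adjusted p = 0.128).

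Among the SLC7 genes 6 of 7 tested members fell and 0 rose, against 13.8% and 11.1% of all tested genes. SLC7A5 (LAT1; chromosome 16, 87830023 to 87869488, minus strand) was at 58.1 and 54.2 RPKM in the controls and 34.5 and 36.2 RPKM in knockdown cells, 62.9% of control (log2 fold change -0.67 ± 0.07, limma adjusted p = 0.00545). It did not pass without knockdown replicate 1 (adjusted p = 0.0566). SLC7A7 (y+LAT1), which exports arginine and lysine in exchange for neutral amino acids, went from 3.97 and 3.72 RPKM to 1.61 and 1.82 RPKM, 44.6% of control (log2 fold change -1.12 ± 0.13, limma adjusted p = 0.00594). Its relative SLC7A6 (y+LAT2) was at 3.75 and 3.73 RPKM in the controls and 2.79 and 2.75 RPKM after knockdown. That difference of -0.42 ± 0.11 (limma adjusted p = 0.0409) was the smallest called, and it was lost without any 1 of the 4 libraries (adjusted p from 0.101 to 0.154). SLC7A6 shares 3371 of its 7588 exonic bases with SLC7A6OS on the opposite strand, so its reads may not be separated from that gene. SLC7A8 (LAT2) was at 0.620 and 0.655 RPKM in the controls and 0.869 and 0.671 RPKM in knockdown cells and did not pass (limma adjusted p = 0.420), with a 95% interval of the fold from 0.841 to 1.63.

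Both heavy chain genes fell, as did 4 of the 5 tested light chain genes that pair with them, SLC7A8 being the exception. Of all tested genes 13.8% fell. SLC3A2 was at 58.0 and 56.8 RPKM in the controls and 24.6 and 25.4 RPKM in the knockdown libraries (log2 fold change -1.20 ± 0.06, limma adjusted p = 0.00285). SLC3A1 went from 2.77 ± 0.0144 to 1.55 ± 0.0796 RPKM (SD, n = 2 each), and its partner SLC7A9 (b0,+AT), which takes up cystine and cationic amino acids, from 1.26 and 1.13 RPKM to 0.648 and 0.527 RPKM. SLC3A1 had a log2 fold change of -0.80 ± 0.13 (limma adjusted p = 0.0120) and SLC7A9 of -0.92 ± 0.18 (limma adjusted p = 0.0214). Neither passed without knockdown replicate 1 or without knockdown replicate 2, and SLC7A9, with 16 to 59 reads per library, did not pass without control replicate 1 either. Exons of SLC3A1 overlap those of PREPL on the opposite strand over 1923 bases.

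Levels of light and heavy chain transcripts can be set against each other as ratios of RPKM within a library. The ratio of SLC7A5 to SLC3A2 was 1.0 and 0.956 in wild-type cells and 1.40 and 1.43 after knockdown. For SLC7A6 the ratio was 0.0646 and 0.0657 in the controls and 0.114 and 0.108 after knockdown. Both pairs of libraries were separated, with the higher ratio in knockdown cells, and so were those of SLC7A8. SLC3A2 itself fell to 43.5% of control, so a ratio to it is higher for any gene that fell less. The ratio of SLC7A7 overlapped between the groups, at 0.0683 and 0.0656 in wild-type and 0.0655 and 0.0716 in knockdown cells. For SLC7A11, which the symbol rule leaves out and which went from 48.0 and 46.4 RPKM to 14.3 and 13.5 RPKM, the ratio was lower in knockdown cells, from 0.827 and 0.818 to 0.581 and 0.534. An exact two-sided permutation test of such a ratio cannot go below p = 0.33 with 4 libraries, so none is given.

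**Figure D3:**
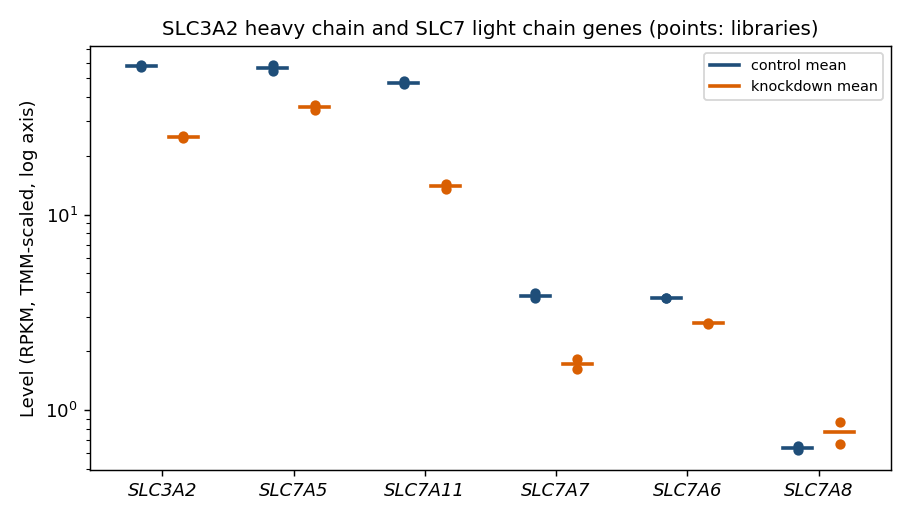
Level of the heavy chain gene SLC3A2 and of the SLC7 light chain genes that pair with it, in RPKM after TMM scaling on a log axis; points are libraries and bars group means. SLC3A2 and SLC7A5 overlap in the controls (56.8 to 58.0 and 54.2 to 58.1 RPKM) and are apart in knockdown cells (24.6 to 25.4 and 34.5 to 36.2 RPKM), while SLC7A8 lies above its control level without passing the test.

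The 2 tested cationic amino acid carriers of SLC7, which need no heavy chain, both fell, while SLC7A3 (CAT3) and the related SLC7A4 and SLC7A14 had too few reads to test. SLC7A1 (CAT1; chromosome 13, 29509410 to 29595688, minus strand) was at 10.4 RPKM in both controls and at 4.75 and 4.30 RPKM in the knockdown libraries. That is 43.6% of control (log2 fold change -1.18 ± 0.09, limma adjusted p = 0.00373). SLC7A2 (CAT2), a carrier known from liver, measured 1.54 and 1.93 RPKM in the controls and 0.930 and 0.995 RPKM after knockdown (log2 fold change -0.78 ± 0.17, limma adjusted p = 0.0285). It did not pass without control replicate 2, knockdown replicate 1 or knockdown replicate 2 (adjusted p = 0.0909, 0.103 and 0.0741).

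Of the SLC43 facilitators, which let large neutral amino acids run down their gradient, both LAT genes fell. SLC43A2 (LAT4; chromosome 17, 1569267 to 1628886) was at 6.99 and 7.91 RPKM in the controls and 3.84 and 4.30 RPKM in knockdown cells (log2 fold change -0.86 ± 0.11, limma adjusted p = 0.00764). SLC43A1 (LAT3; chromosome 11, 57484534 to 57515786) went from 4.96 and 5.20 RPKM to 2.36 and 2.30 RPKM (log2 fold change -1.09 ± 0.11, limma adjusted p = 0.00466). The nucleobase carrier SLC43A3 was at 4.38 and 4.84 RPKM in the controls and 3.75 and 4.03 RPKM in the knockdown libraries and did not pass (log2 fold change -0.24 ± 0.11, limma adjusted p = 0.163). SLC43A3 shares 1349 exonic bases with RP11-872D17.8 on the same strand.

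The SLC6 family moved in both directions. SLC6A8, which takes up creatine (X chromosome, 153688099 to 153696593, plus strand), rose from 74.8 and 80.2 RPKM to 112 and 113 RPKM (log2 fold change 0.54 ± 0.07, limma adjusted p = 0.00743). In knockdown cells its libraries lay among those of SLC1A5, so the 2 most abundant members could no longer be ordered. SLC6A8 did not pass without knockdown replicate 1 or 2 (adjusted p = 0.0634 and 0.0713), at nearly the same size of change (0.56 and 0.51). The taurine carrier SLC6A6 (chromosome 3, 14402576 to 14489349) fell from 32.4 and 38.9 RPKM to 23.2 and 24.1 RPKM (log2 fold change -0.58 ± 0.10, limma adjusted p = 0.0157), and missed the threshold without knockdown replicate 1 or 2 (adjusted p = 0.0864 and 0.0603). The ratio of SLC6A8 to SLC6A6 RPKM was 2.31 and 2.06 in wild-type cells and 4.81 and 4.68 after knockdown. SLC6A8 makes up most of the family's summed level, which was 112 and 124 RPKM in the controls and 139 and 140.2 RPKM after knockdown.

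At lower levels, SLC6A9 (GLYT1), a glycine carrier, was at 1.31 and 1.26 RPKM in the controls and 0.712 and 0.564 RPKM in knockdown cells (log2 fold change -0.91 ± 0.18, limma adjusted p = 0.0208). SLC6A20 (SIT1), a proline carrier, went from 1.12 and 1.28 RPKM to 0.679 and 0.656 RPKM (log2 fold change -0.76 ± 0.17, limma adjusted p = 0.0276). Both rest on few reads, 34 to 163 per library. SLC6A9 did not pass without either control or without knockdown replicate 2 (adjusted p from 0.0570 to 0.0753), and SLC6A20 did not pass without any 1 of the 4 libraries (adjusted p from 0.0526 to 0.0902). SLC6A12 (BGT1) was at 1.29 and 1.51 RPKM in the controls and 1.09 and 0.923 RPKM in the knockdown libraries, below them but without passing (limma adjusted p = 0.115). SLC6A16 had a log2 fold change of 0.11 ± 0.17 (limma adjusted p = 0.652).

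The lysosomal carriers include genes that report amino acids to mTORC1. SLC36A1 (PAT1), a proton-coupled carrier of the lysosome and the surface, was at 1.53 and 1.76 RPKM in the controls and 0.768 and 0.760 RPKM in knockdown cells (log2 fold change -1.01 ± 0.16, limma adjusted p = 0.0118; adjusted p = 0.0524 without knockdown replicate 1). SLC38A9, the lysosomal arginine sensor, went from 1.31 and 1.36 RPKM to 0.920 and 0.737 RPKM and passed narrowly (log2 fold change -0.64 ± 0.17, limma adjusted p = 0.0483). It passed in only 3 of 14 alternatives, was lost without each of the 4 libraries in turn (adjusted p from 0.0788 to 0.155) and with scaling to total reads (adjusted p = 0.0624). SLC36A4 was not called (log2 fold change -0.18 ± 0.14, limma adjusted p = 0.397).

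Of the 3 tested glutamate carriers of the SLC1 family limma called 0, also at an unadjusted p under 0.05, and limma-voom called none. SLC1A1 (EAAT3) was at 0.902 and 1.44 RPKM in the controls and 1.03 and 1.01 RPKM in the knockdown libraries, with the groups overlapping. SLC1A7 and SLC1A2 overlapped likewise. The 3 genes had limma adjusted p-values of 0.679, 0.667 and 0.585. Their 95% intervals of the fold ran from 0.597 to 1.36, from 0.658 to 1.28 and from 0.609 to 1.29. The interval of SLC1A5 ran from 0.456 to 0.618, and a difference between it and these genes was not tested.

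Reads of some transporter genes may be shared with others. Exons of 17 members overlap those of another gene, mostly on the opposite strand, and the sources used here do not give the strand setting with which reads were counted. SLC1A5 shares 780 of 3332 exonic bases with CTB-147N14.6 on the opposite strand, whose mean level was 104 RPKM in the controls and 50.3 RPKM after knockdown. SLC38A10 shares 610 bases with RP11-455O6.8 and SLC7A5 271 bases with RP4-536B24.2. These antisense genes had log2 fold changes of -1.04, -0.86 and -1.03. SLC7A5 and SLC6A8 also have copies elsewhere in the genome. SLC7A5P2, a pseudogene with 536 exonic bases, took 303 to 513 reads per library and was at 49.6 and 50.1 RPKM in the controls and 43.3 and 49.8 RPKM in the knockdown libraries, without passing (limma adjusted p = 0.423). SLC6A10P took 31 to 39 reads per library, against 7260 to 8426 for SLC6A8.

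Genes of amino acid handling outside the 6 families were followed in 7 lists, whose counts are to be read against the 13.8% lower and 11.1% higher of all tested genes and their median log2 fold change of -0.03. The list of amino acid carriers of other families is broad, as SLC17A5 is named for sialic acid and no substrate is given here for DIRC2. Of its 7 tested genes 4 fell and 0 rose. These were CTNS, the lysosomal cystine exporter (7.96 ± 0.517 to 4.72 ± 0.118 RPKM, SD, n = 2 each; log2 fold change -0.74 ± 0.09), PQLC2, the lysosomal exporter of cationic amino acids (-0.90 ± 0.15), SLC17A5, the lysosomal sialic acid carrier (-0.55 ± 0.12), and DIRC2, a lysosomal membrane carrier (-0.78 ± 0.16), with limma adjusted p from 0.00712 to 0.0271. CTNS passed without each library in turn, and the list held 2 calls without control replicate 2, knockdown replicate 1 or knockdown replicate 2. In the mitochondrial inner membrane 2 of 11 tested carriers fell and 1 rose, a share near that of all genes. SFXN3, a mitochondrial serine carrier, had a log2 fold change of 0.61 ± 0.10, SLC25A13, the aspartate and glutamate exchanger of liver, of -0.46 ± 0.09 and SLC25A44, a carrier of branched-chain amino acids, of -0.38 ± 0.08 (limma adjusted p from 0.0119 to 0.0281), and 0 of the 3 calls were left without knockdown replicate 1 or without knockdown replicate 2. BSG, a surface chaperone of carriers, fell from 136 ± 13.2 to 97.7 ± 4.72 RPKM (limma adjusted p = 0.0201), and its call was lost without knockdown replicate 1 and without knockdown replicate 2.

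In the list of amino acid sensing upstream of mTORC1, 7 of 35 tested genes rose and 3 fell, 28.6% called against 24.9% of all tested genes. The median log2 fold change was -0.15. Knockdown libraries lay below the controls in 21 of the 35 genes and above them in 12, against 36.6% and 31.0% of all tested genes. MTOR, the kinase itself, fell from 10.9 and 10.3 RPKM to 7.02 and 6.97 RPKM (log2 fold change -0.60 ± 0.08, limma adjusted p = 0.00786), and GATSL2, which encodes the arginine sensor subunit CASTOR2 and has near-identical copies, from 17.6 ± 2.18 to 9.14 ± 0.499 RPKM (-0.94 ± 0.11, limma adjusted p = 0.00607). WDR24 of the GATOR2 complex had a log2 fold change of -0.49 ± 0.10 (limma adjusted p = 0.0243), and LAMTOR5 of the lysosomal Ragulator complex rose by 0.56 ± 0.10 (limma adjusted p = 0.0164). Without knockdown replicate 1 or 2 this list held 0 higher and 1 lower gene each, and without control replicates 1 and 2 it held 3 and 2 higher and 3 lower genes each. Limma-voom called 8 higher and 8 lower. GATSL2 passed without each library in turn, and MTOR, LAMTOR5 and WDR24 were lost without either knockdown library.

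Of 29 tested genes of amino acid synthesis and use 9 (31.0%) fell and 2 (6.90%) rose, against 13.8% and 11.1% of all tested genes, with a median log2 fold change of -0.15. ASNS (asparagine synthetase) went from 9.76 ± 0.759 to 5.65 ± 0.341 RPKM (log2 fold change -0.78 ± 0.10, limma adjusted p = 0.00725) and PSAT1, of serine synthesis, from 34.5 ± 2.60 to 22.9 ± 0.505 RPKM (-0.59 ± 0.08, limma adjusted p = 0.00783). PYCRL, of proline synthesis, fell by 0.63 ± 0.11 on the log2 scale (limma adjusted p = 0.0140), while ASS1, of arginine synthesis and the urea cycle, rose by 0.66 ± 0.09 (limma adjusted p = 0.00891). ASNS was lost without knockdown replicate 1, ASS1 without knockdown replicate 2 and PSAT1 and PYCRL without each of these. The lower calls numbered 0 without knockdown replicate 1, 2 without knockdown replicate 2, 4 without control replicate 2 and 6 without control replicate 1.

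Regulators of transporter transcription had 5 of 20 tested genes higher and 2 lower, against 11.1% and 13.8% of all tested genes, with a median log2 fold change of -0.02. ATF4, the main factor of the amino acid response, was at 66.4 and 62.7 RPKM in the controls and 76.3 and 75.2 RPKM in the knockdown libraries, above them without passing (log2 fold change 0.23 ± 0.07, limma adjusted p = 0.0561). CEBPB, ATF3 and NUPR1, stress-responsive transcriptional regulators, had log2 fold changes of 0.68 ± 0.07, 0.87 ± 0.14 and 0.75 ± 0.11 (limma adjusted p from 0.00462 to 0.0118). MYC was at 56.8 and 53.9 RPKM in the controls and 46.3 and 46.7 RPKM after knockdown (log2 fold change -0.25 ± 0.07, limma adjusted p = 0.0439). Without knockdown replicates 1 and 2 the list held 1 and 2 higher genes and 0 and 1 lower ones, and CEBPB passed without each library in turn, while ATF3 and NUPR1 were lost without knockdown replicate 1 and NUPR1 also without knockdown replicate 2. In the list of ubiquitin ligases and their adaptors that remove transporters from the surface, 4 of 11 tested genes were called (36.4%, against 24.9% of all tested genes), with a median log2 fold change of -0.03. Of these 3 fell and 1, the arrestin ARRDC3, rose (log2 fold change 0.59 ± 0.08, limma adjusted p = 0.00837; lost without knockdown replicate 1), and the 3 lower calls, ARRDC1, ARRDC2 and WWP2, were lost without any 1 of the 4 libraries.

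**Figure D4:**
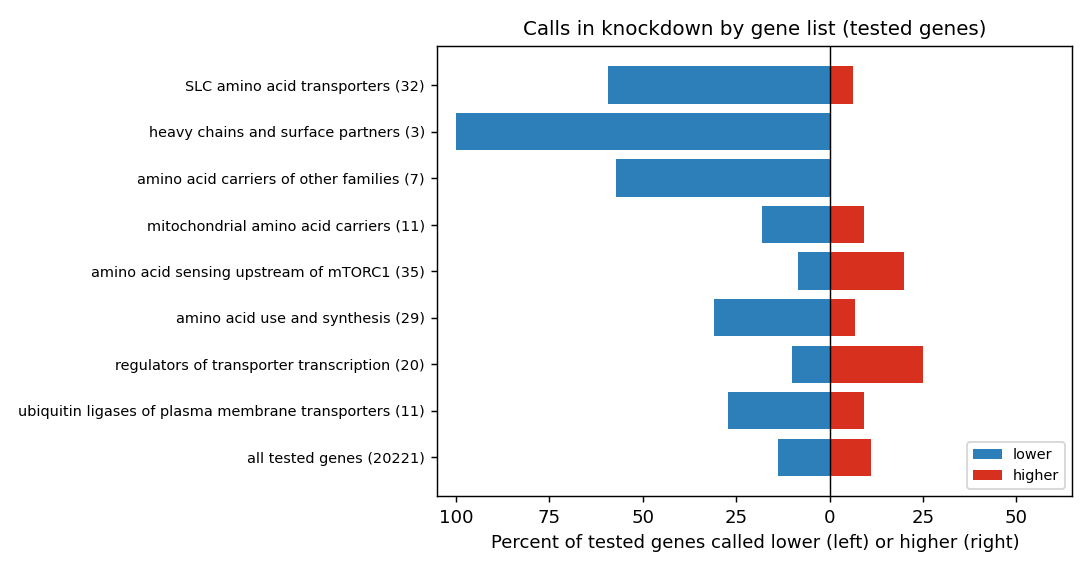
Share of tested genes called lower (blue, to the left) and higher (red, to the right) in knockdown cells for the SLC amino acid transporters, the 7 other lists and all tested genes; numbers in brackets are tested genes. The transporters reach 59.4% lower against 13.8% of all tested genes.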

How the data were processed

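The authors deposited 1 RPKM value per gene and library. The submitters' processing notes list StringTie 1.3.2, edgeR 3.12.1, Subread 1.5.1, Trimmomatic 0.36 and featureCounts, without their order. No source used here gives the aligner, the strand setting or how molecular identifiers, part of the kit per the labels' protocols, were used. The build in the notes is mm9, but of 26436 gene names found once in GENCODE 29, 99.6% lay on the same GRCh38 chromosome, as did all 51 members. Start and end were both the same for 93.4% of these names and for 98.0% of the members. RPKM times exon length gave whole reads in 100% of values (within 0.01 read), used for TMM factors, computed with own code, and limma-voom.

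RPKM divided by the TMM factor was tested as log2(value + 0.1), which understates changes at low levels, with limma 3.58.1 in R 4.3.3 (trend, group as the only term, Benjamini-Hochberg over 20221 genes, threshold 0.05), with 2 residual and 3.56 prior degrees of freedom. The procedure was also run on simulated reads with the same dispersion for every gene, and the outcome is not reported here. Errors of log2 fold changes are SEs. Members and lists were chosen with earlier results of these data known. List genes missing here under their own or an older symbol (5) were not analysed. Text names every called member, the 10 most abundant, the 3 closest uncalled, the heavy chains and up to 4 genes per list by adjusted p, of which 1 is not reported here. Other members are given to account for all, and MYC and ATF4 were chosen after their values were seen.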

Additional observations from a re-analysis of the deposited data

How the results depend on the processing

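Under the 14 alternatives no called member changed direction. The 19 lower members became 10 with no filter on low values, and the 2 higher ones stayed at 2. Among all genes the lower calls went from 2792 to 1113 in that setting and the higher ones from 2240 to 693. The median log2 fold change of tested members, -0.65, moved to -0.43 with a pseudocount of 1, to -0.18 with no filter (51 genes, 19 of them with at most 9 reads in any library), to -0.59 with scaling to total reads only and to -0.59 with the exon length trend removed. Leaving out 1 library at a time gave 9 to 14 lower members, 0 to 2 higher members and medians from -0.69 to -0.60; the lone library of a group is then assumed to vary like the other group. Limma-voom gave 22 lower and 3 higher, adding SLC38A6, SLC6A12 and SLC38A11 to the lower and SLC38A4 to the higher ones. With the replicate number as a block, 17 lower and 2 higher members passed, SLC7A6 and SLC38A9 being lost (median -0.65); same-numbered libraries deviated together with r = 0.0628 across genes, so the numbers are not taken as pairs. The 5 tested members under 1 RPKM had 4 to 83 reads per library, which limits the precision of their values.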
